A study of Mus musculus with 8 samples.

Results

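The genes described here encode the enzymes that load ubiquitin and its relatives onto proteins and a large class of those that take ubiquitin off again. They were chosen by symbol, as every gene called Uba1 to Uba7, Ube2 with a letter, or Usp with a number. The comparison of short E2 genes with long Usp genes was chosen because a relation of the mRNA change to length was already known in these data. Of 8562 genes measured, 66 matched, of which 6 were Uba genes, 27 were Ube2 genes and 33 were Usp genes. Membership rests on the symbol alone, and the enzyme activity of each member was not checked. Usp6nl, for example, encodes a protein of the Rab GTPase-activating kind and not a ubiquitin protease.

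Ubiquitin is first activated by an E1 enzyme (the Uba genes), then passed to the active-site cysteine of an E2 conjugating enzyme (the Ube2 genes), and from there attached to a substrate with the help of an E3 ligase. Ubiquitin-specific proteases (the Usp genes) cut it off, again with an active-site cysteine, and so rescue proteins from the proteasome or end a signal. Small relatives of ubiquitin, among them SUMO, NEDD8 and the interferon-induced ISG15, travel through E1 and E2 enzymes of their own. E2 enzymes are little more than one catalytic fold, whereas most ubiquitin-specific proteases carry long extra domains, so the genes of both families differ in length.

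The tissue was epididymal white fat (eWAT) of male mice, 6 weeks old. HuR-FKO mice carried AdipoQ-Cre, which is active in adipocytes, together with floxed HuR alleles (HuR f/f). Their adipocytes so lost HuR, an RNA-binding protein encoded by Elavl1, while the other cells of the tissue kept it. Ctrl mice were HuR f/f littermates without Cre, so no control carried Cre alone. Each replicate was a pool of fat from 3 mice. Every pool was split for mRNA sequencing and for ribosome profiling, which counts the mRNA pieces shielded by ribosomes (ribosome-protected fragments, RPF). The labels of the RPF libraries also name a HuR antibody, while the study's methods describe a HuR antibody for RNA immunoprecipitation and none for ribosome profiling. They were read here as ribosome profiling, as titled. With 2 pools of each genotype this gave 8 libraries, 2 in each of 4 groups. The p-values measure the spread between these pools.

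Values are RPKM, the reads on a coding sequence divided by its length and by the coding reads of the library. The mRNA libraries held 5223721 to 8060054 coding reads and the RPF libraries 531966 to 1311977. Per library the median member had 245 to 367 mRNA reads but only 17 to 47.5 RPF reads, and 14 to 37 of the 66 members had fewer than 20 RPF reads, so changes of RPF were measured with far less precision. Elavl1 mRNA, read over its whole coding sequence, had 40.8 and 49.8 RPKM in the Ctrl libraries against 41.6 and 43.3 RPKM in those labelled HuR-FKO, so it did not check the genotype labels. Of 12 adipocyte markers 1 rose (Pnpla2) and 2 fell (Lep and Slc2a4) in mRNA. Their summed level ran from 65470 to 66820 RPKM in Ctrl mRNA and from 77950 to 80680 RPKM in HuR-FKO mRNA. Abundant Fabp4 weighs heavily in that sum, with 26435 and 32249 RPKM in Ctrl mRNA and 37985 and 38627 RPKM in HuR-FKO mRNA. The median log2 change of the 12 markers was 0.022, against 0.025 over all genes. Of the other cell types, 6 of 7 red blood cell markers fell and 6 of 14 macrophage markers rose in HuR-FKO, all by the limma test given with the first comparison. The summed red blood cell markers ran from 8455 to 12480 RPKM in Ctrl mRNA against 3673 to 6087 RPKM in HuR-FKO mRNA, and the summed macrophage markers 2324 to 2476 and 2685 to 2943 RPKM. The part of these cells in the results below was not tested, and in a whole tissue fewer cells of a type and less RNA per cell cannot be told apart.

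The Ube2 and Usp families were searched with a set pattern around the catalytic cysteine, and members without a match were left out. The stretches of coding sequence around that cysteine are printed for members described below. They were read 5′ to 3′ on the coding strand from GENCODE M21 transcripts (mouse build GRCm38), and the capitals mark the cysteine codon that receives ubiquitin or its relative in an E2 enzyme and attacks the bond in a protease. The first set holds E2 enzymes, with Ube2d3 and Ube2b serving ubiquitin, Ube2m and Ube2f serving NEDD8, Ube2l6 serving ISG15, and Ube2w placing ubiquitin on the amino end of a protein.
Ube2d3: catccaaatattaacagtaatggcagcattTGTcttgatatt
Ube2b: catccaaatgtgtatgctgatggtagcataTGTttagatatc
Ube2m: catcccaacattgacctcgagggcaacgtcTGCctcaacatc
Ube2f: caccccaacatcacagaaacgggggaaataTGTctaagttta
Ube2l6: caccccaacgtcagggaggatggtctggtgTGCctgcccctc
Ube2w: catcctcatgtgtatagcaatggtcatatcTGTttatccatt
The third codon of these 6 stretches is aat or aac, which encodes asparagine, except in Ube2w, where it is cat, which encodes histidine. The search pattern admitted only asparagine or histidine there, so the stretches do not show what the whole family shares. The second set holds the ubiquitin-specific proteases with an mRNA change past or next to the threshold (Usp48, Usp33), the ISG15 protease Usp18, the abundant Usp4, and Usp34, the longest member.
Usp48: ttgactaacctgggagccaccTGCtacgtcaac
Usp33: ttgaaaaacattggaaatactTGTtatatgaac
Usp18: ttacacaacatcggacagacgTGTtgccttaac
Usp4: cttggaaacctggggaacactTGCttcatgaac
Usp34: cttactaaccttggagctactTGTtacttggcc
Coding sequence lengths were 312 to 3867 bases in the Ube2 family, with a median of 547.5, and 1101 to 10749 bases in the Usp family, with a median of 2940. Whole transcripts had medians of 2145 bases in Ube2 genes, 4707 in Usp genes and 2887 in Uba genes, against 2981 over all genes, with a matched length for 65 of the 66 members (none for Ube2h). Much of the difference lay in the coding part, because the median 3′ untranslated region was 1369 bases in Ube2 genes and 1475 bases in Usp genes, both above the 954 bases of all genes.

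The families also stood at different levels. RPKM is scaled by coding length, but differences between libraries that go with length remained, as given below. Reads of 11 E2 genes with sequence shared with other genes may also have been split. Levels are therefore set side by side only roughly. The median Ctrl mRNA level was 69.6 RPKM in Ube2 genes, 39.9 RPKM in Uba genes and 17.4 RPKM in Usp genes, against 31.7 RPKM over all genes. Of 27 Ube2 genes 26 were above the median of all genes, and of 33 Usp genes 7 were. Coding G+C content was similar in both families, with medians of 48.0% in Ube2 genes and 47.0% in Usp genes against 52.4% in all genes.

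The first comparison asked which members changed in mRNA when adipocytes lacked HuR. In a limma fit on log2(RPKM + 1) over all 8562 genes, with Benjamini-Hochberg adjustment and a threshold of 0.05, 4 of the 66 members passed. Usp48 and Uba7 rose, and Ube2m and Ube2w fell. Over all genes 642 rose (7.5%) and 560 fell (6.54%), so the 2 rises and 2 falls among 66 members were below those shares. The other 62 members did not pass, and 46 of the 66 had changes smaller than 0.25 on the log2 scale, as had 5079 of the 8562 genes. Fold changes on this scale understate those of genes with low values.

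Usp48 encodes a nuclear deubiquitinase that acts on histone H2A (NM_130879, chromosome 4, 137594207 to 137658531, plus strand, 28 exons, GRCm38). Its mRNA had 23.1 and 21.8 RPKM in the Ctrl libraries and 34.2 and 32.3 RPKM in the HuR-FKO libraries. Both HuR-FKO libraries were above both Ctrl libraries, at 1.48 times the Ctrl mean. The log2 change was 0.55 ± 0.12 (SE, n = 2 libraries each, 95% interval 0.27 to 0.82, adjusted p = 0.0177). RPF of Usp48 had 13.7 and 17.9 RPKM in the Ctrl libraries and 20.8 and 21.4 RPKM in the HuR-FKO libraries, again without overlap, with a log2 change of 0.40 ± 0.27 (SE, n = 2 libraries each, 95% interval -0.22 to 1.02, adjusted p = 0.649). That RPF change did not pass. The mRNA call was lost without HuR-FKO replicate 1 (adjusted p = 0.13) or without HuR-FKO replicate 2 (adjusted p = 0.106).

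Uba7 encodes the E1 enzyme that activates ISG15 (NM_023738, chromosome 9, 107975534 to 107984056, plus strand, 24 exons). Its mRNA had 24.4 and 31.4 RPKM in the Ctrl libraries and 44.4 and 40.9 RPKM in the HuR-FKO libraries. The groups did not overlap, although the Ctrl libraries differed by more than the HuR-FKO libraries did. The log2 change was 0.60 ± 0.14 (SE, n = 2 libraries each, 95% interval 0.28 to 0.92, adjusted p = 0.0229), the largest rise among the members, at 1.53 times the Ctrl mean. RPF of Uba7 had 10.6 and 8.48 RPKM in the Ctrl libraries and 12.5 and 9.61 RPKM in the HuR-FKO libraries, from 15 to 48 reads per library. There the groups overlapped, and the log2 change was 0.19 ± 0.30 (SE, n = 2 libraries each, 95% interval -0.50 to 0.87, adjusted p = 0.869). The mRNA call was lost without Ctrl replicate 1 (adjusted p = 0.0527), without HuR-FKO replicate 1 (adjusted p = 0.164) and without HuR-FKO replicate 2 (adjusted p = 0.126).

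Ube2m encodes the E2 enzyme that carries NEDD8 to cullins, the scaffolds of a large class of ubiquitin ligases (NM_145578, chromosome 7, 13035238 to 13038273, minus strand, 6 exons). In Ctrl it was the second most abundant E2 mRNA, with 178 and 184 RPKM in the Ctrl libraries and 136 and 130.2 RPKM in the HuR-FKO libraries. Replicates lay close together and the groups did not overlap. The log2 change was -0.44 ± 0.11 (SE, n = 2 libraries each, 95% interval -0.68 to -0.19, adjusted p = 0.0298). RPF of Ube2m had 80.3 and 70.2 RPKM in the Ctrl libraries and 66.4 and 61.4 RPKM in the HuR-FKO libraries, also lower in both HuR-FKO libraries, with a log2 change of -0.23 ± 0.19 (SE, n = 2 libraries each, 95% interval -0.66 to 0.20, adjusted p = 0.713) that did not pass. The mRNA call was lost without Ctrl replicate 2 (adjusted p = 0.0597) and without HuR-FKO replicate 1 (adjusted p = 0.123) or replicate 2 (adjusted p = 0.175).

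Ube2w, whose enzyme attaches ubiquitin to the amino end of proteins (NM_001271017, chromosome 1, 16571269 to 16619338, minus strand, 6 exons), had 74.8 and 73.2 RPKM in the Ctrl libraries and 42.2 and 54.6 RPKM in the HuR-FKO libraries. The Ctrl libraries were close to each other, and the HuR-FKO libraries were spread more widely but both lower. The log2 change was -0.61 ± 0.14 (SE, n = 2 libraries each, 95% interval -0.92 to -0.30, adjusted p = 0.0194), the largest fall among the members. RPF had 67.9 and 76.9 RPKM in the Ctrl libraries and 72.3 and 46.5 RPKM in the HuR-FKO libraries, with overlap between the genotypes and a log2 change of -0.31 ± 0.24 (SE, n = 2 libraries each, 95% interval -0.86 to 0.24, adjusted p = 0.699). The mRNA call was lost without HuR-FKO replicate 1 (adjusted p = 0.151). The annotated transcript matched to Ube2w holds its coding sequence alone, 543 bases, so its transcript length is a minimum.

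The number of members called depended on single libraries, and so did the number called over all genes. With 1 library left out at a time, the log2 change ran from 0.50 to 0.59 for Usp48 and from 0.43 to 0.78 for Uba7. It ran from -0.47 to -0.41 for Ube2m and from -0.79 to -0.43 for Ube2w. A fit with one spread shared over all 8 libraries called none of the 4, at adjusted p = 0.131 for Ube2m to 0.204 for Uba7. With the trend of transcript length removed, the log2 change was -0.32 (adjusted p = 0.0692) for Ube2m and -0.37 (adjusted p = 0.174) for Ube2w. The latter is unsure, since it rests on a length that is a minimum. With the trends of length and G+C content removed, adjusted p was 0.0518 for Usp48 and 0.0644 for Ube2w. Ube2g2 was called higher with either removal, and Usp35 with the second, both named after their values were seen. Of the 65 members with a length 3 and 4 were called, where 1063 and 1024 of 8245 genes were. Without a trend in the prior, adjusted p was 0.0517 for Ube2m.

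**Figure D1:**
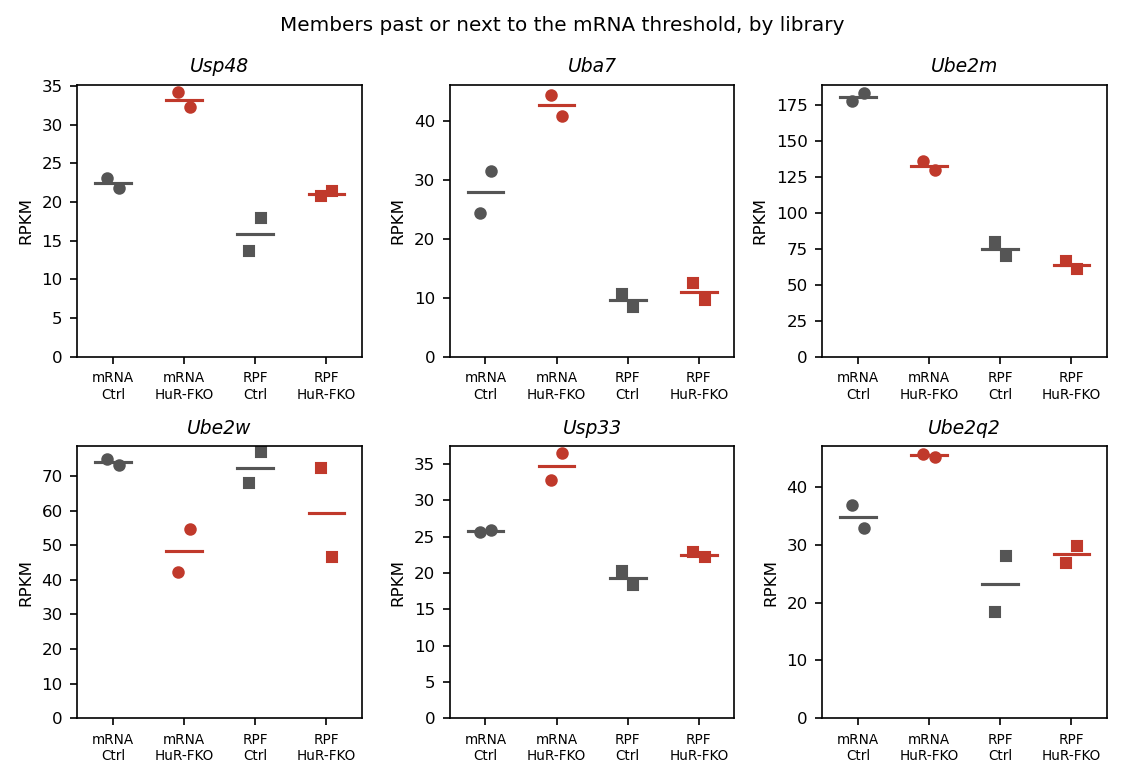
RPKM of 6 members in the 8 libraries, with mRNA as circles, RPF as squares, Ctrl in grey, HuR-FKO in red and a line at each group's mean. In mRNA no group overlaps the other in any of the 6 panels, whereas in RPF the groups overlap for Uba7, Ube2w and Ube2q2.

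The next members below the threshold were Usp33 and Ube2q2. Usp33, a protease known for removing ubiquitin from the type 2 iodothyronine deiodinase, had mRNA values of 25.6 and 26.0 RPKM in the Ctrl libraries and 32.8 and 36.5 RPKM in the HuR-FKO libraries. Its groups did not overlap, and the log2 change was 0.41 ± 0.12 (SE, n = 2 libraries each, 95% interval 0.14 to 0.68, adjusted p = 0.0522). Its RPF values were 20.2 and 18.4 RPKM in the Ctrl libraries and 22.8 and 22.2 RPKM in the HuR-FKO libraries, higher in both HuR-FKO libraries by 0.22 ± 0.25 (SE, n = 2 libraries each, 95% interval -0.36 to 0.79, adjusted p = 0.809) on the log2 scale. Ube2q2, an E2 enzyme with a long amino-terminal extension, had mRNA values of 36.8 and 32.9 RPKM in the Ctrl libraries and 45.7 and 45.1 RPKM in the HuR-FKO libraries. These did not overlap either, with a log2 change of 0.38 ± 0.12 (SE, n = 2 libraries each, 95% interval 0.11 to 0.64, adjusted p = 0.0653). Ube2q2 values are uncertain, because 77.8% of the 30-base words of its coding sequence also occur in transcripts of another gene, Gm4895.

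Both HuR-FKO libraries were above both Ctrl libraries for 29 of the 66 members in mRNA, and below both for 8. Over all genes these shares were 32.5% and 27.8%. The counts by family follow. Among the Usp genes 22 of 33 (66.7%) were higher without overlap and 3 were lower, whereas among the Ube2 genes 5 of 27 were higher and 5 were lower, and among the Uba genes 2 of 6 were higher and none lower. The median log2 change was 0.23 in Usp genes, 0.023 in Ube2 genes and 0.098 in Uba genes, against 0.025 over all genes. Values were positive in 28 of 33 Usp genes, 15 of 27 Ube2 genes and 4 of 6 Uba genes, against 53.4% of all genes. Of the Usp genes Usp48 alone passed the test. With voom on the recovered reads, Usp33 (adjusted p = 0.0243), Usp47, Usp53 and Usp9x rose as well. Voom called 8 of the 66 members, 6 of them higher, and 1509 of the 8562 genes, 909 of them higher. No test is given for these family medians, since genes are not replicates. Over 20% of the coding 30-base words of 12 members, Usp1 and 11 E2 genes with Ube2d2a, Ube2d3, Ube2f, Ube2n, Ube2q2 and Ube2v1 among them, occur in transcripts of other genes, so their reads may have been split. Without these 12 the medians were 0.041 in Ube2 genes and 0.24 in Usp genes.

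**Figure D2:**
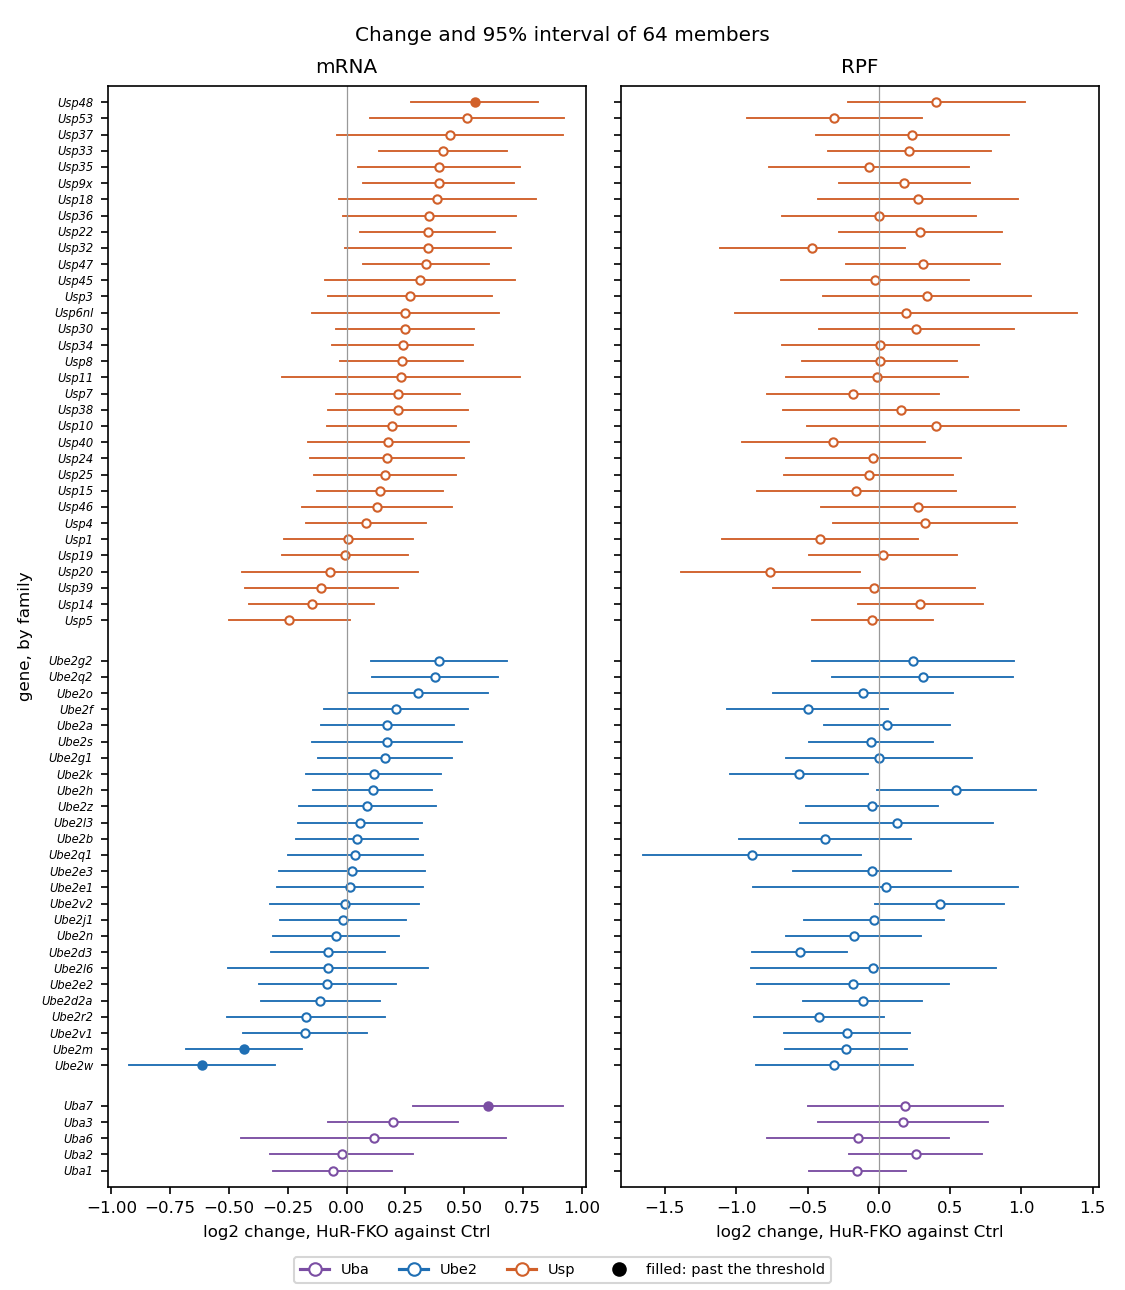
Log2 change between HuR-FKO and Ctrl (point) and its 95% interval from limma (line) for 64 of the 66 members, in mRNA on the left and RPF on the right, with filled points past the threshold. Most Usp points lie to the right of 0 in mRNA, Ube2 points lie on both sides, and all RPF points are open.

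The change of mRNA went with transcript length across the whole table, and the members followed that order. Across all 8245 genes with a length, Spearman's rho between length and log2 change was 0.38. Across the 65 members it was 0.50, within the 26 Ube2 genes 0.22 and within the 33 Usp genes 0.36. Genes share libraries and are not independent, so these are descriptions. With all genes divided by length into 4 classes of equal size, the median log2 change was -0.13 in the shortest class (up to 1868 bases), -0.017 in the second (up to 2981 bases), 0.064 in the third (up to 4477 bases) and 0.19 in the longest. Of 26 Ube2 genes 11 were in the shortest class, Ube2w by its minimum length, and 2 in the longest. Of 33 Usp genes 1 was in the shortest and 19 in the longest.

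The families were then set against genes of their own length. In the longest class the 19 Usp genes had a median log2 change of 0.25 against 0.19 for all genes, and 14 of the 19 were higher without overlap where 54.1% of all genes of that class were. In the third class the 11 Usp genes had a median of 0.22 and the 8 Ube2 genes a median of 0.012, on either side of the 0.064 of all genes. In the second class medians were 0.023 in 5 Ube2 genes, -0.13 in 2 Usp genes and -0.017 in all genes. In the shortest class the 11 Ube2 genes had a median of -0.0073 against -0.13 for all genes. The median change of the short E2 genes was thus nearer to 0 than that of all short genes. Ube2w was among these 11 by a length that is a minimum, so its class is unsure. From the shortest to the third class the Ube2 medians were -0.0073, 0.023 and 0.012, without the steady climb of all genes. With the trend of length removed from each library, the medians were 0.052 in Ube2 genes and 0.15 in Usp genes, and with the trends of length and coding G+C content removed they were 0.023 and 0.080. The Ube2 median minus the Usp median, -0.21 as measured, was then -0.098 and -0.057.

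The difference between the families as measured also varied between replicates. As medians over the family of each gene's deviation from its own mean over the 4 mRNA libraries, Usp minus Ube2 was 0.0059 and -0.19 in the Ctrl libraries and 0.14 and 0.054 in the HuR-FKO libraries. The genotypes did not overlap, but the Ctrl libraries lay farther apart than Ctrl replicate 1 and HuR-FKO replicate 2 did. The difference between the Ctrl replicates itself followed length, with rho of -0.34 across all genes and -0.44 across the members. Between the HuR-FKO replicates rho was 0.01 across all genes and -0.072 across the members. In the shortest class of all genes Ctrl replicate 2 exceeded Ctrl replicate 1 by a median of 0.10 on the log2 scale, and in the longest class the difference was -0.093. Without Ctrl replicate 2 the Ube2 median minus the Usp median was -0.080, and without Ctrl replicate 1 it was -0.30. A length-dependent property of the libraries and the genotype were not tested apart from each other.

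**Figure D3:**
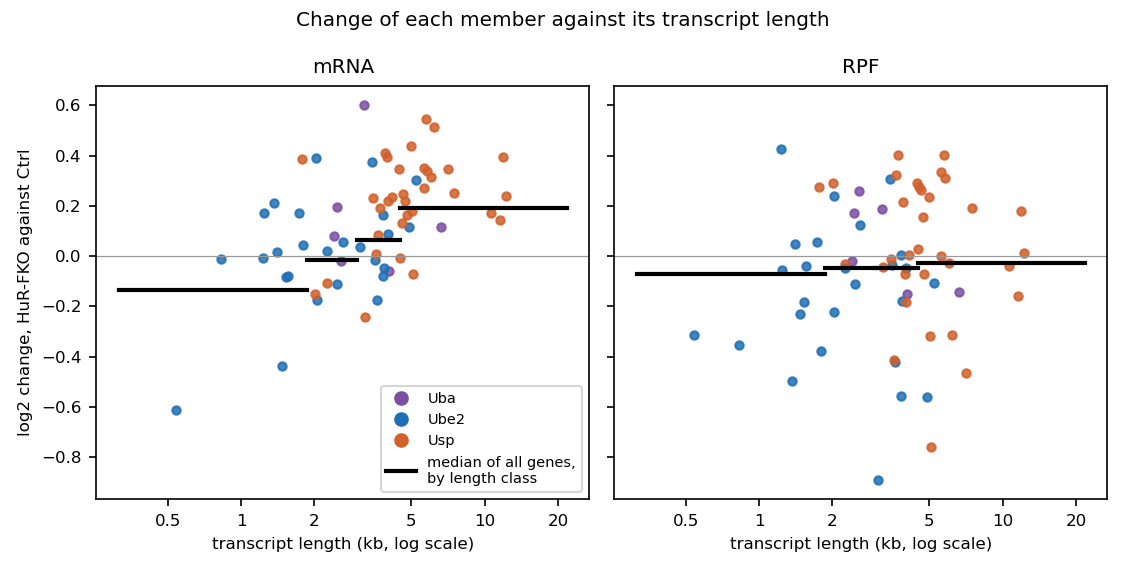
Log2 change of 65 members between HuR-FKO and Ctrl against transcript length on a log axis, for mRNA on the left and RPF on the right, with black lines at the median of all genes in each of 4 length classes. In mRNA the class medians climb from -0.13 to 0.19 and the longer Usp genes lie mostly above 0.19, whereas in RPF the lines run between -0.072 and -0.026.

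In RPF no member passed the test, where 28 genes of the table rose (0.327%) and 10 fell (0.117%). At an unadjusted p under 0.05, 4 members were found by limma, all with lower RPF in HuR-FKO, where 10.7% of all genes were under that p and 6.11% were under it with a lower RPF, and voom on the recovered reads called none after adjustment. Both HuR-FKO libraries were higher for 8 of the 66 members and lower for 15, against 17.7% and 24.1% of all genes. Median log2 changes were 0.012 in Usp genes, -0.11 in Ube2 genes and 0.076 in Uba genes, with -0.047 over all genes. Across the 65 members rho between length and the RPF change was 0.067, and across all genes it was 0.042. The Ube2 median minus the Usp median was -0.12 in RPF, with an SD between replicate libraries of 0.12. It was -0.28 without Ctrl replicate 2. Without Ctrl replicate 1 a single member passed in RPF, Ube2h, which was higher and had 175 and 101 RPKM in the Ctrl libraries and 197 and 193 RPKM in the HuR-FKO libraries. Ube2h was named after its values were seen.

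The RPF value closest to a call was that of Ube2d3, which encodes one of the most broadly acting E2 enzymes and was the most abundant E2 mRNA of the tissue (NM_025356, chromosome 3, 135438565 to 135468198, plus strand, 8 exons). Its RPF had 333 and 321 RPKM in the Ctrl libraries and 237 and 208 RPKM in the HuR-FKO libraries. Both HuR-FKO libraries were lower, and the log2 change was -0.56 ± 0.14 (SE, n = 2 libraries each, 95% interval -0.89 to -0.22, adjusted p = 0.217). In mRNA the values were 297 and 299.9 RPKM in the Ctrl libraries and 283 and 282 RPKM in the HuR-FKO libraries, also lower in both HuR-FKO libraries but by little, with a log2 change of -0.079 ± 0.11 (SE, n = 2 libraries each, 95% interval -0.32 to 0.16, adjusted p = 0.655). A fit over all 8 libraries with one shared spread called the RPF fall of Ube2d3 (adjusted p = 0.0385). Of its coding 30-base words 74.2% occur in transcripts of other genes, so reads of Ube2d3 and its copies may have been mixed. The other 3 members under an unadjusted p of 0.05 were Ube2q1, Ube2k and Usp20, named after their values were seen. RPF of Ube2q1 had 19.8 and 19.6 RPKM in the Ctrl libraries and 13.8 and 7.41 RPKM in the HuR-FKO libraries, from 5 to 29 reads. RPF of Ube2k, an E2 enzyme that builds ubiquitin chains, had 117 and 158 RPKM in the Ctrl libraries and 104 and 81.2 RPKM in the HuR-FKO libraries. RPF of Usp20 had 4.73 and 5.02 RPKM in the Ctrl libraries and 2.22 and 2.73 RPKM in the HuR-FKO libraries, from 4 to 15 reads. In each the HuR-FKO libraries lay below both Ctrl libraries.

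Translational efficiency (TE) sets RPF in relation to mRNA, and its change between the genotypes was tested as an interaction over all 8 libraries. No member passed, and 1 gene of the table did (0.0117%). At an unadjusted p under 0.05 limma found 7 members, all with a lower TE in HuR-FKO, where 8.04% of all genes were under that p and 5.05% were under it with a lower TE. Voom called no member after adjustment. The median log2 change of TE was -0.21 in Usp genes, -0.12 in Ube2 genes and -0.095 in Uba genes, against -0.070 over all genes. The order of Ube2 and Usp genes was not stable, since the Ube2 median minus the Usp median, 0.088 as reported, was -0.088 with the length trend removed, -0.11 with length and G+C trends removed, -0.14 without Ctrl replicate 2 and -0.011 without HuR-FKO replicate 1. Values were negative in 24 of 33 Usp genes, 20 of 27 Ube2 genes and 5 of 6 Uba genes. Over all genes 4985 of 8562 were negative. In the longest length class the 19 Usp genes had a median of -0.21, and so had all genes of that class. TE and mRNA changes share the mRNA libraries, so a length trend in the mRNA values enters both with opposite sign.

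Among the 7 were Ube2d3, Ube2q1, Ube2k and Usp20, already described, and Ube2f, Usp53 and Usp32. Usp53 had mRNA values of 6.17 and 4.76 RPKM in the Ctrl libraries and 7.64 and 8.72 RPKM in the HuR-FKO libraries. Its RPF values were 3.78 and 3.87 RPKM in the Ctrl libraries and 2.85 and 2.93 RPKM in the HuR-FKO libraries. The mRNA was higher and the RPF lower in both HuR-FKO libraries, with a log2 change of TE of -0.82 ± 0.29 (SE, n = 2 libraries each, 95% interval -1.48 to -0.17, adjusted p = 0.584). Usp32 had mRNA values of 11.5 and 9.10 RPKM in the Ctrl libraries and 13.8 and 12.8 RPKM in the HuR-FKO libraries. Its RPF values were 5.76 and 5.45 RPKM in the Ctrl libraries and 3.33 and 4.30 RPKM in the HuR-FKO libraries, again lower where the mRNA was higher, with a log2 change of TE of -0.81 ± 0.30 (SE, n = 2 libraries each, 95% interval -1.48 to -0.14, adjusted p = 0.584). The RPF libraries held 5 to 14 reads of Usp53 and 11 to 32 of Usp32. Both genes were named after their values were seen.

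Members differed more from each other in ribosome load than any of them did between genotypes, where the log2 change of TE ran from -0.93 to 0.44. Expressed as log2 of RPF over mRNA relative to the median gene of the same pool, the Ctrl mean ran from -1.87 for Usp35 to 2.09 for Uba6. The median was 0.12 in Ube2 genes and -0.36 in Usp genes, with 15 of 27 Ube2 genes and 10 of 33 Usp genes above the median gene. Per pool, the Ube2 median was 0.12 and 0.080 in the Ctrl pools against 0.096 and -0.16 in the HuR-FKO pools. The Usp median was -0.39 and -0.18 in the Ctrl pools against -0.34 and -0.41 in the HuR-FKO pools. The Usp median was below the Ube2 median in all 4 pools. Load was not compared among genes of equal coding length, whose medians were 547.5 bases in Ube2 and 2940 bases in Usp genes. The study reports that RPF accumulated near start codons, and the part of this in the family difference was not tested.

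Uba6 encodes a second E1 enzyme for ubiquitin. Its load was 1.78 and 2.39 in the Ctrl pools and 1.73 and 1.96 in the HuR-FKO pools, and its mRNA had 5.22 and 2.90 RPKM in the Ctrl libraries and 4.78 and 3.92 RPKM in the HuR-FKO libraries. RPF of Uba6 had 14.8 and 12.2 RPKM in the Ctrl libraries and 12.3 and 11.9 RPKM in the HuR-FKO libraries, so that a scarce mRNA carried an RPF level above it in every pool. Usp9x, a long X-linked protease gene, had the highest load among the Usp genes, 1.30 and 1.95 in the Ctrl pools and 1.53 and 1.41 in the HuR-FKO pools. At the other end, Usp35 had -1.55 and -2.19 in the Ctrl pools and -2.49 and -2.11 in the HuR-FKO pools, from 4 to 12 RPF reads. Uba7 was also low, with -0.92 and -1.58 in the Ctrl pools and -1.47 and -1.73 in the HuR-FKO pools. Uba6, Usp9x and Usp35 were named after their values were seen.

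**Figure D4:**
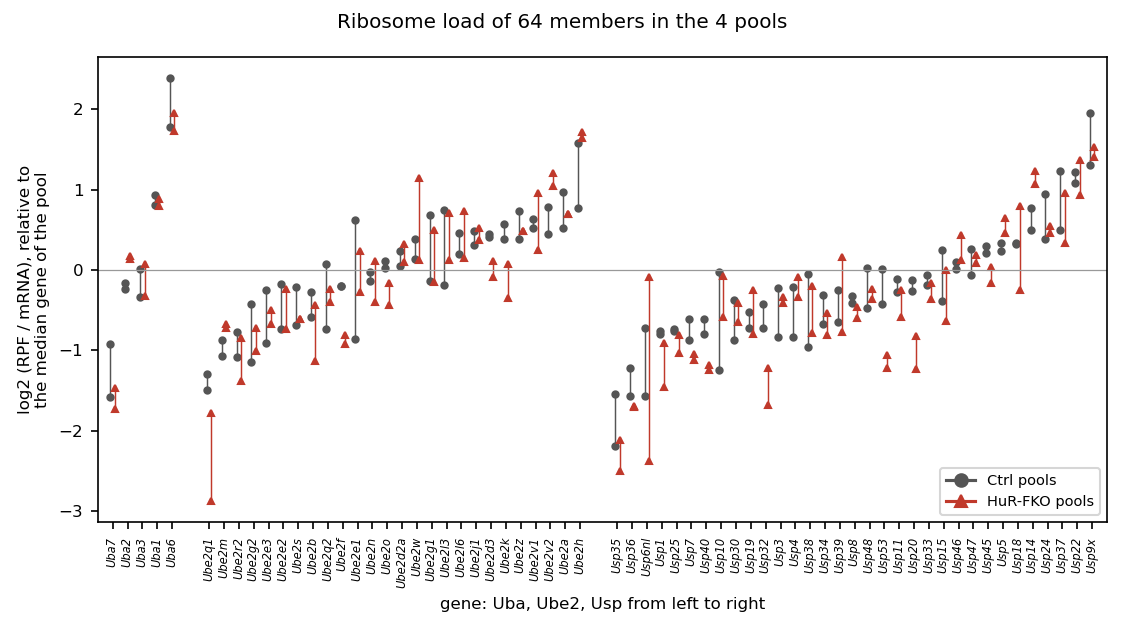
Log2 ratio of RPF to mRNA of 64 of the 66 members relative to the median gene of the pool, with Ctrl pools as grey circles and HuR-FKO pools as red triangles, joined within a genotype, and families from left to right. Uba6, at 1.73 to 2.39, stands highest, and Uba7, Ube2q1 and Usp35 stand low in all 4 pools.

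The activating enzymes were described next by modifier. Uba1, the main E1 enzyme of ubiquitin, had mRNA values of 131 and 135 RPKM in the Ctrl libraries and 122 and 133 RPKM in the HuR-FKO libraries, with overlap and a log2 change of -0.059 ± 0.11 (SE, n = 2 libraries each, 95% interval -0.31 to 0.19, adjusted p = 0.758). Its RPF values were 189 and 207 RPKM in the Ctrl libraries and 175 and 181 RPKM in the HuR-FKO libraries, slightly lower in both HuR-FKO libraries. This abundant gene, with 306 to 729 RPF reads, had the narrowest intervals among the 6 Uba genes, -0.49 to 0.19 for the RPF change.

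For SUMO, Uba2 encodes the catalytic E1 subunit. Uba2 mRNA had 55.3 and 67.5 RPKM in the Ctrl libraries and 56.5 and 64.3 RPKM in the HuR-FKO libraries. The values overlapped, and the log2 change was -0.02 ± 0.14 (SE, n = 2 libraries each, 95% interval -0.32 to 0.28, adjusted p = 0.937). RPF of Uba2 had 40.7 and 46.1 RPKM in the Ctrl libraries and 49.3 and 54.9 RPKM in the HuR-FKO libraries, higher in both HuR-FKO libraries, with a log2 change of 0.26 ± 0.20 (SE, n = 2 libraries each, 95% interval -0.21 to 0.73, adjusted p = 0.707).

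For NEDD8, Uba3 encodes the catalytic E1 subunit, and Ube2m and Ube2f the E2 enzymes. Uba3 mRNA had 45.3 and 41.8 RPKM in the Ctrl libraries and 53.3 and 46.9 RPKM in the HuR-FKO libraries, higher without overlap, with a log2 change of 0.20 ± 0.12 (SE, n = 2 libraries each, 95% interval -0.079 to 0.47, adjusted p = 0.31). RPF of Uba3 had 29.6 and 33.9 RPKM in the Ctrl libraries and 43.6 and 29.3 RPKM in the HuR-FKO libraries, with overlap. Ube2f mRNA had 36.8 and 45.9 RPKM in the Ctrl libraries and 50.2 and 45.4 RPKM in the HuR-FKO libraries, with overlap and a log2 change of 0.21 ± 0.14 (SE, n = 2 libraries each, 95% interval -0.096 to 0.52, adjusted p = 0.33). RPF of Ube2f had 26.5 and 32.2 RPKM in the Ctrl libraries and 20.5 and 20.2 RPKM in the HuR-FKO libraries, lower in both HuR-FKO libraries, with a log2 change of -0.50 ± 0.25 (SE, n = 2 libraries each, 95% interval -1.06 to 0.067, adjusted p = 0.518) and 6 to 17 reads per library. Thus of the 3 NEDD8 enzymes Ube2m alone passed in mRNA and none passed in RPF. Of the 30-base words of Ube2f 73.5% occur elsewhere.

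For ISG15, Uba7 is the E1, Ube2l6 the E2 and Usp18 the protease. Ube2l6 mRNA had 51.3 and 35.5 RPKM in the Ctrl libraries and 34.5 and 47.3 RPKM in the HuR-FKO libraries. The replicates of each genotype differed widely and the groups overlapped, with a log2 change of -0.079 ± 0.19 (SE, n = 2 libraries each, 95% interval -0.51 to 0.35, adjusted p = 0.809). RPF of Ube2l6 had 58.3 and 33.0 RPKM in the Ctrl libraries and 29.8 and 61.2 RPKM in the HuR-FKO libraries, with Ctrl replicate 1 and HuR-FKO replicate 2 high in both assays. Usp18, the shortest Usp gene at 1771 bases, had mRNA values of 8.28 and 7.40 RPKM in the Ctrl libraries and 12.6 and 8.79 RPKM in the HuR-FKO libraries. Both HuR-FKO libraries were higher, with a log2 change of 0.39 ± 0.19 (SE, n = 2 libraries each, 95% interval -0.032 to 0.81, adjusted p = 0.195). RPF of Usp18 had 8.62 and 7.49 RPKM in the Ctrl libraries and 8.27 and 11.9 RPKM in the HuR-FKO libraries, from 6 to 12 reads. Among 24 measured interferon-stimulated genes, a list that holds none of these 3, 6 rose and 1 fell in mRNA and 1 rose in RPF, with a median log2 change of 0.26 in mRNA and 0.0068 in RPF. Their part in the Uba7 result was not tested.

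The third most abundant E2 mRNA of the Ctrl libraries was Ube2b, which acts in DNA damage tolerance. Its mRNA had 148 and 167 RPKM in the Ctrl libraries and 163 and 161 RPKM in the HuR-FKO libraries, with overlap and a log2 change of 0.044 ± 0.12 (SE, n = 2 libraries each, 95% interval -0.22 to 0.30, adjusted p = 0.827). RPF of Ube2b had 81.4 and 112 RPKM in the Ctrl libraries and 93.2 and 57.5 RPKM in the HuR-FKO libraries, also with overlap. Ube2o, a large E2 enzyme that can also act as its own ligase, is the longest Ube2 transcript at 5205 bases. Its mRNA had 14.8 and 14.8 RPKM in the Ctrl libraries and 19.6 and 17.4 RPKM in the HuR-FKO libraries, higher without overlap, with a log2 change of 0.30 ± 0.13 (SE, n = 2 libraries each, 95% interval 0.0059 to 0.60, adjusted p = 0.157). RPF of Ube2o had 13.2 and 12.1 RPKM in the Ctrl libraries and 11.2 and 12.2 RPKM in the HuR-FKO libraries, with overlap.

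Among the proteases the most abundant mRNAs were those of Usp19, Usp5 and Usp4. Usp19, a protease with a membrane-anchored form at the endoplasmic reticulum, had mRNA values of 75.6 and 77.4 RPKM in the Ctrl libraries and 81.6 and 71.2 RPKM in the HuR-FKO libraries, with a log2 change of -0.0052 ± 0.12 (SE, n = 2 libraries each, 95% interval -0.27 to 0.26, adjusted p = 0.98). Usp5, which takes apart free ubiquitin chains, had mRNA values of 65.2 and 66.8 RPKM in the Ctrl libraries and 57.7 and 53.6 RPKM in the HuR-FKO libraries. It was 1 of 3 Usp genes lower in both HuR-FKO libraries, with a log2 change of -0.24 ± 0.12 (SE, n = 2 libraries each, 95% interval -0.50 to 0.014, adjusted p = 0.186). RPF of Usp5 had 68.0 and 63.3 RPKM in the Ctrl libraries and 61.5 and 65.7 RPKM in the HuR-FKO libraries, with overlap. Usp4 mRNA had 54.5 and 53.1 RPKM in the Ctrl libraries and 55.6 and 58.6 RPKM in the HuR-FKO libraries, higher without overlap by 0.085 ± 0.11 (SE, n = 2 libraries each, 95% interval -0.17 to 0.34, adjusted p = 0.649) on the log2 scale. RPF of Usp19 had 43.4 and 37.9 RPKM in the Ctrl libraries and 36.6 and 46.8 RPKM in the HuR-FKO libraries, with overlap. RPF of Usp4 had 38.7 and 23.9 RPKM in the Ctrl libraries and 34.3 and 43.0 RPKM in the HuR-FKO libraries, with overlap. Usp34, a very large protease and the longest member at 12200 bases, had mRNA values of 12.8 and 13.4 RPKM in the Ctrl libraries and 15.4 and 15.9 RPKM in the HuR-FKO libraries. These did not overlap, and the log2 change was 0.24 ± 0.13 (SE, n = 2 libraries each, 95% interval -0.06 to 0.54, adjusted p = 0.259). RPF of Usp34 had 6.62 and 8.74 RPKM in the Ctrl libraries and 6.88 and 8.57 RPKM in the HuR-FKO libraries, with overlap. The abundant proteases thus included values on both sides of 0, and the longest member was close to the median of the longest class.

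The rest of the ubiquitin system was read from lists of genes that are no members. Among 21 HECT ligases, 2 rose, Herc6 among them, and none fell, where 7.5% of all genes rose and 6.54% fell. These ligases had a median length of 5194 bases. Their median log2 change was 0.33, against 0.19 for all genes of the longest length class. Of 10 RBR ligases Rnf144b rose, with a log2 change of 1.01 ± 0.12 (SE, n = 2 libraries each, adjusted p = 0.000868) in mRNA and 0.22 in RPF (adjusted p = 0.726).

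Of 11 ubiquitin-like modifiers Atg12 rose by 0.53 on the log2 scale (adjusted p = 0.0171). Of 6 measured SUMO and NEDD8 proteases Senp2 rose, and of 12 genes for p97 and its adaptors Ubxn7 rose. These single rises stand beside a share of 7.5% over all genes. None of 14 cullin complex subunits, 8 COP9 signalosome subunits, 18 deubiquitinases of other families and 7 other E1 and E2 type enzymes passed in either direction. Their median log2 changes in mRNA were 0.052, -0.13, 0.061 and -0.16. In RPF and in TE no gene of these lists passed, with limma in each case.

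**Figure D5:**
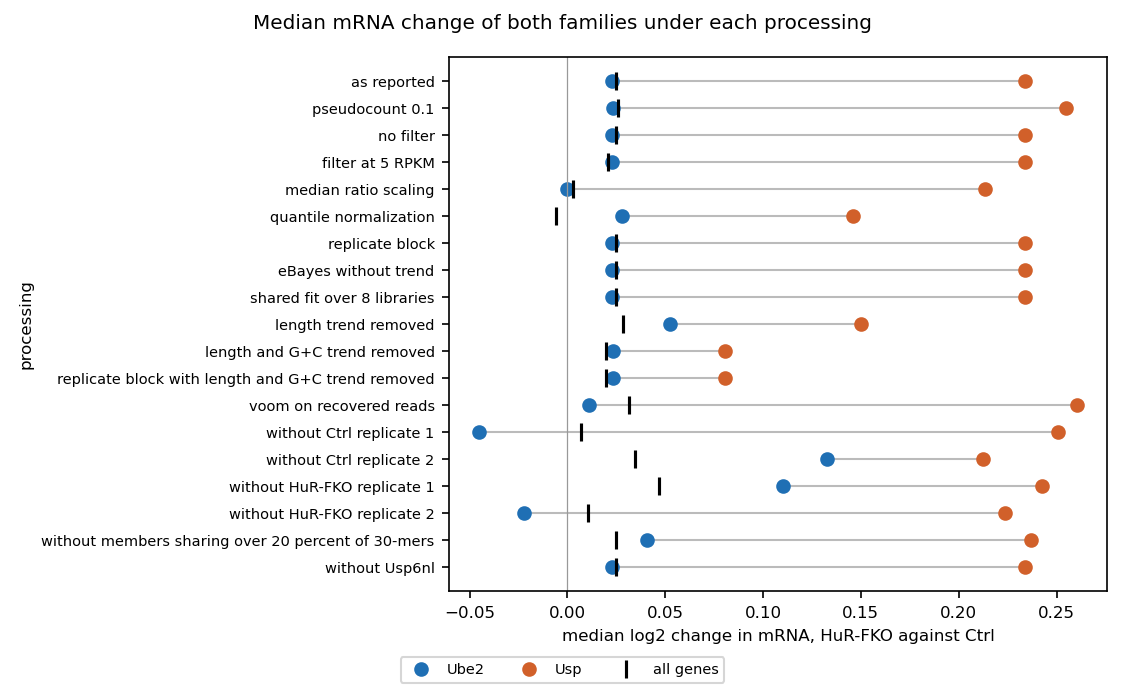
Median log2 change in mRNA of Ube2 genes (blue) and Usp genes (orange), joined by a line, and of all genes (black tick), for each processing tried. As reported these are 27 Ube2 and 33 Usp genes, and lines that drop members hold fewer. The Usp median is to the right of the Ube2 median in every line, and Ube2 minus Usp goes from -0.21 as reported to -0.057 once trends of length and G+C content are removed.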

How the data were processed

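mRNA and RPF were sequenced from the same eWAT pools. The authors deposited RPKM values per gene, which divide coding-sequence reads by coding length and library total. The submitters' processing notes name TopHat2 2.0.9, Bowtie 1.0.0 and cutadapt 1.8.3. The study's methods name mm10, TopHat and Cufflinks for RNA-seq given as FPKM, with more eWAT samples than these. For these libraries genome build, annotation and counting program were not given in the sources used here. Mean and log ratio columns of the authors were not used. No listed value is at or under 1 RPKM, so the table had been filtered at that level.

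Lengths came from GENCODE M21, matched by RefSeq ID for 8245 genes (96.3%). Reads recovered from the RPKM values were whole in 98.4% of these, within 0.001 read. They were estimated less surely for Ube2h and Ube2w. Intervals from reads would cover counting error only, since PCR copies are not independent.

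log2(RPKM + 1) was fitted with limma 3.58.1 (R 4.3.3; lmFit, eBayes with trend) over genes with a mean above 1 RPKM, which were all 8562, separately for the 4 mRNA and the 4 RPF libraries, and for TE as the interaction over 8 libraries. Two-sided p-values received Benjamini-Hochberg adjustment over all genes. With 2 libraries against 2 an exact permutation test cannot go below p = 0.333. For TE, the mRNA and RPF libraries of a pool come from the same animals per the labels, and their replicate differences correlated at 0.045 in Ctrl and 0.055 in HuR-FKO, so the pool was a block by design in an alternative, which called no member.

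Members and lists were chosen with earlier results of these data known. Members described by library were those past the threshold, the 3 most abundant of each family, the 2 nearest the threshold in mRNA, the shortest and longest Ube2 and Usp transcripts and the enzymes of ubiquitin's relatives, such as NEDD8 and ISG15, and, of other lists, up to 2 genes with the largest change past the threshold. Alternatives were another pseudocount (0.1), no filter, a filter at 5 RPKM, quantile normalization, median ratio scaling, eBayes without trend and a block for the replicate number. Others were a shared fit, removal of length and G+C trends (splines with 4 degrees of freedom), voom on recovered reads, and leaving out each library. For TE both libraries of a pool were left out together. Some genes that this rule names are not reported here.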

Additional observations from a re-analysis of the deposited data

How the results depend on the processing

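The 4 mRNA calls kept their direction under all alternatives. They were the same 4 with a pseudocount of 0.1, without a filter, with a filter at 5 RPKM, and with median ratio scaling or quantile normalization. Voom on recovered reads called 1509 of all genes in mRNA, and the replicate block with length and G+C trends removed called 1772. Members past the threshold in mRNA numbered 10 with the replicate block, 8 with voom on recovered reads, 8 with the replicate block and the trends of length and G+C content removed, and 0 in the shared fit, and 0 to 8 when a library was left out. Over all genes the 1202 calls in mRNA became 2156 with the block, 254 in the shared fit, and 226 to 1642 when a library was left out. The 38 calls in RPF became 140 with the block, 4 without the trend, 202 in the shared fit, 92 and 88 with length or length and G+C trends removed, 73 with both and the block, 171 with voom, and 15 to 107 when a library was left out. Members past the threshold in RPF were 1 in the shared fit (Ube2d3) and 0 to 1 when a library was left out (Ube2h, higher without Ctrl replicate 1). In TE the single gene became 2 with voom and 2 with the block and both trends removed.

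The Ube2 median minus the Usp median in mRNA, -0.21, was -0.098 with the length trend removed, -0.057 with length and G+C trends removed, -0.057 with the block added, and -0.30 to -0.080 when a library was left out. In RPF it was -0.26 with a filter at 5 RPKM, which keeps 60 members, and -0.28 to -0.10 when a library was left out. In TE it was 0.088 and turned to -0.088 with the length trend removed, to -0.11 with both trends removed, and to -0.11 with the block as well. With both libraries of a pool left out it ran from -0.14 to 0.18. The cause was not tested. Leaving out the 12 members with shared sequence, or Usp6nl, was added after the data were seen and moved no median difference by more than the spread between replicates.

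Across the genotypes the pools share only a replicate number. Replicate differences of Ctrl and HuR-FKO correlated at 0.155 in mRNA and -0.005 in RPF, and the block took the members called in mRNA from 4 to 10, adding Ube2g2, Ube2q2, Usp33, Usp47, Usp53 and Usp9x, all higher. Where a library was left out, the lone library of its group is assumed to vary like the other group. Of 672 values of the 21 members described by library under alternatives, 18 lost their call and 5 gained one, and 46 changes of sign concerned values not called either way. RPF depth, with 14 to 37 members under 20 reads in a library, limits every RPF and TE comparison.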
